A study of Rattus norvegicus with 32 samples.

Results

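The comparison described here is Ang II+Los against Ang II at 3 h in C6 cells, a rat glioma line grown as one established culture. Its members are 8 arrays of the 32 in the series, 4 of each group, chosen by their titles and set against each other within a replicate number. In both groups confluent cells in serum-containing medium received angiotensin II (Ang II, 100 nM) for 3 h. The Ang II+Los group had in addition been exposed to the AT1 receptor antagonist Losartan (10 µM) for 30 min beforehand. The comparison therefore asks which transcripts differed when the AT1 receptor was blocked while Ang II was present. Control cells without either agent and Ang II+PD123319 cells, in which the AT2 receptor was blocked, lay on the same slides and are cited where a value needs them. The labels number the replicates but do not say whether they were separate cultures, so the p-values measure the spread between these samples, which may be technical.

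Ang II is the effector peptide of the renin-angiotensin system. Its AT1 receptor couples to Gq, raises intracellular calcium, activates protein kinase C and the ERK kinases, and can stimulate the receptor for epidermal growth factor (EGF) through ligands shed from the cell surface. AT1 signalling is known for growth, migration, contraction and matrix production, whereas the AT2 receptor is often described as opposing it. Losartan occupies AT1 and leaves AT2 free.

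The transcripts of the receptors themselves were too dim to follow. The probes for Agtr1a, Agtr1b and Agtr2 were well above background on 0 of the 16 arrays of 3 h, so no difference between groups can be given for them. Markers of cell types were read as a description of the cells. Of 16 astroglial and glioma markers, 9 were well above background on all 16 arrays, among them S100b, Vim, Nes, Cspg4 and Cd44, and 5, among them Gfap and Slc1a3, on none. Of 10 microglial markers, 5 were well above background on all 16 arrays, while Ptprc, C1qa and P2ry12 were so on none. The same held on all 16 arrays for 4 of 8 fibroblast, 3 of 7 oligodendrocyte and 3 of 10 neuronal markers. It held for 1 of 8 endothelial and 1 of 6 epithelial markers. These shares do not set glia apart from every other type. None of the tested astroglial, microglial, neuronal, endothelial, fibroblast or epithelial markers passed the limits below, and of the oligodendrocyte markers Cnp did, at -1.14.

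In total 13628 genes were tested with limma on log2 signal. Differences are given as log2 values, Ang II+Los minus Ang II, unless a fold is named. A gene was called when its unadjusted p was under 0.05 and its fold change was above 1.2 or below 0.8. There were 1374 such genes (10.1% of those tested): 636 were higher in Ang II+Los (4.67%) and 738 were lower (5.42%). No gene had an adjusted p under 0.05 by limma with Benjamini-Hochberg adjustment, the lowest adjusted p being 0.427, and 1489 genes had an unadjusted p under 0.05. Every gene called below shares that adjusted p of 0.427. The median fold of the called genes was 1.39, and 82 of them differed by more than 2-fold, 81 of which were lower with Losartan. In bulk cultures fewer cells of a kind and less RNA per cell cannot be told apart.

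The size and the direction of the differences depended on the slide. The median absolute difference between the paired arrays was 0.256 on slide 1, 0.481 on slide 2, 0.124 on slide 3 and 0.163 on slide 4. On slide 2, 2439 genes differed by more than 2-fold, against 829 on slide 1, 24 on slide 3 and 229 on slide 4. Of these, 738 were lower with Losartan on slide 1 and 1863 on slide 2, whereas 18 were higher on slide 3 and 222 on slide 4. Across genes, the differences on slides 1 and 2 correlated at 0.337, but those on slides 1 and 3 at -0.306 and on slides 1 and 4 at -0.136. The remaining pairs of slides correlated at 0.094 to 0.122. Of the 1374 called genes, 1160 had their largest difference on slide 2. Without replicate 2, 221 genes (1.62%) were called and 150 of them belonged to the 1374. Without that replicate, 1.98% of all genes had an unadjusted p under 0.05, where the test itself allows 5%.

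The Ang II+Los array of replicate 2 also stood apart in how evenly it covered the length of transcripts. For 1222 genes with a pair of probes on one strand, the probe nearer the 5′ end was set against the probe nearer the 3′ end, a difference that falls when transcripts are broken or copied short. On slide 2 the 5′ probe was lower with Losartan than the 3′ probe by a median of 0.514, with the 5′ probe relatively lower in 911 of the genes. The corresponding medians were -0.07 on slide 1, -0.05 on slide 3 and 0.003 on slide 4. Relative to the mean of all arrays, this array had a value of -0.387 and the other 15 arrays lay between -0.08 and 0.13. Probes whose rn4 coordinates run across an intron made up 8.68% of the tested probes, 14.7% of those called lower and 4.49% of those called higher. The part of this in the differences below was not tested. Some genes and lists are therefore given with values on every slide or without replicate 2, and the others with the limma difference alone.

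**Figure D1:**
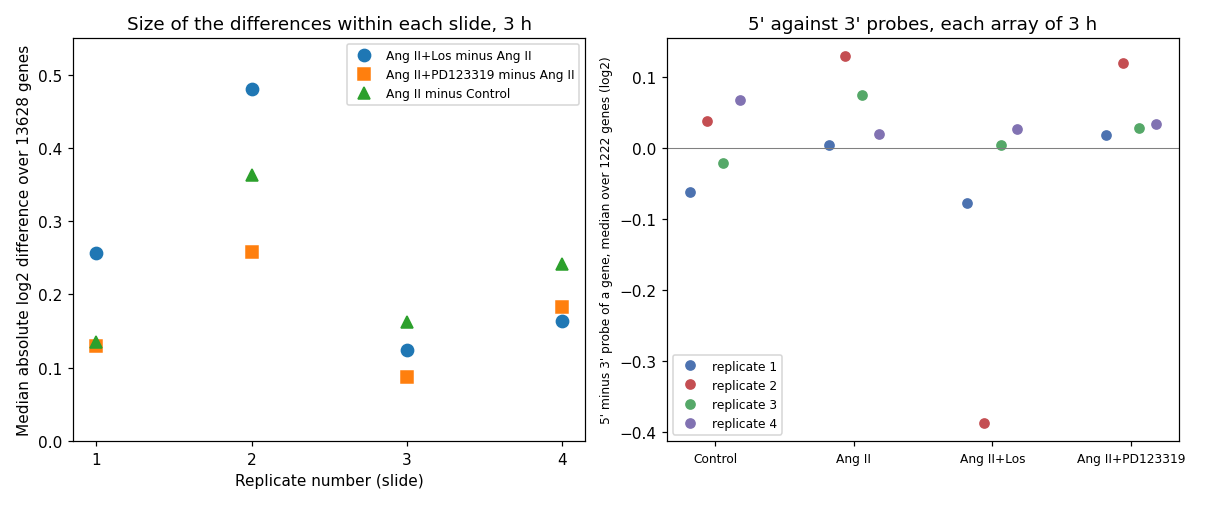
Left, the median absolute log2 difference over all tested genes within each slide for 3 comparisons of the 3 h arrays (y axis, log2; x axis, replicate number). Right, the median 5′ minus 3′ probe difference of 1222 genes in each of the 16 arrays (y axis, log2, relative to the mean of all arrays; x axis, treatment). Losartan differences are largest on slide 2, and the Ang II+Los array of replicate 2 lies at -0.387, below all others.

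The lowest genes with Losartan were taken from called genes that were lower on every slide, well above background on all 8 arrays and had a symbol. Over all tested genes, called or not, the differences ran from -3.57 to 1.30. The lowest genes under the rule included regulators of actin, membrane traffic and transcription. Ctnnb1, which encodes β-catenin, a component of cadherin junctions and the effector of canonical Wnt signalling, showed the lowest value among the named genes. Its log2 signal in Ang II cells was 10.53, 10.33, 9.48 and 9.29 in replicates 1 to 4, and in Ang II+Los cells 8.41, 5.58, 9.11 and 9.26. The arrays of replicates 1 and 2 fell far below their partners, while those of replicates 3 and 4 lay within 0.37 of them. The difference was -1.82 ± 0.64 (SE), and without replicate 2 it was -0.84 and no longer called. Its only probe spans an intron at chr8:125985864-125986043 (rn4).

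Arpc4, a subunit of the Arp2/3 complex that nucleates branched actin, followed the same course. It measured 8.03, 7.79, 7.40 and 7.87 in Ang II cells and 5.70, 4.93, 7.33 and 7.65 in Ang II+Los cells. Again the drop belonged to replicates 1 and 2, and the groups overlapped through replicates 3 and 4. The difference was -1.37 ± 0.46 (SE), and -0.87 without replicate 2, when it was not called.

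The remaining genes of the lowest 12 were Etv1, an ETS transcription factor acting below ERK (-1.30), Arf6, a GTPase of endosomal recycling and the cell cortex (-1.25), Sh3gl1, an endophilin of endocytosis (-1.13), Fam60a, now Sinhcaf, a subunit of the Sin3 deacetylase complex (-1.12), Slc9a3r1, now Nherf1, a membrane scaffold (-1.11), Cap1, an actin monomer recycling protein (-1.09), Lass2, now Cers2, a ceramide synthase (-1.09), Hsd3b7, an enzyme of bile acid synthesis (-1.06), Gbas (-1.05) and Prrc1 (-1.04). All 12 were lower on every slide, as the rule for choosing them required. Their differences ranged from -0.64 to -2.33 on slide 1 and from -1.65 to -4.75 on slide 2, but from -0.38 to -0.04 on slides 3 and 4. Without replicate 2, Sh3gl1 (-0.54) and Cap1 (-0.44) were still called and the other 10 were not.

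The highest genes, chosen by the same rule in the other direction, rose less than the lowest fell. Hipk2, a nuclear kinase that phosphorylates transcription regulators in the DNA damage and Wnt responses, measured 10.65, 11.23, 11.19 and 10.73 in Ang II cells and 11.16, 12.59, 11.42 and 11.20 in Ang II+Los cells. Its difference was 0.64 ± 0.23 (SE), and it was still called without replicate 2, at 0.40. Mgp, a matrix protein that restrains calcification and BMP signalling, measured 6.60, 6.23, 5.69 and 5.84 in Ang II cells and 6.97, 7.57, 6.28 and 6.06 with Losartan. Both genes were higher on all 4 slides, as the rule for choosing them required, and most of all on slide 2. The ranges of the groups overlapped.

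Peli1, a ubiquitin ligase of Toll-like receptor signalling, was higher by 0.63 over the 4 slides, with 1.22, 1.04, 0.13 and 0.15 on slides 1 to 4. The other genes of the highest 12 were Gpr155 (0.64), Tmem161b (0.61), Ng35, now Zbtb12 (0.61), Tmem140 (0.61), Fxyd7, a regulator of the sodium pump (0.60), Mfsd9 (0.59), Zfp772 (0.59), Dapp1, an adaptor that binds phosphoinositides (0.58), and Tmem200b (0.57). Of the highest 12, Hipk2, Mgp, Tmem161b, Fxyd7, Zfp772 and Tmem200b were still called without replicate 2.

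**Figure D2:**
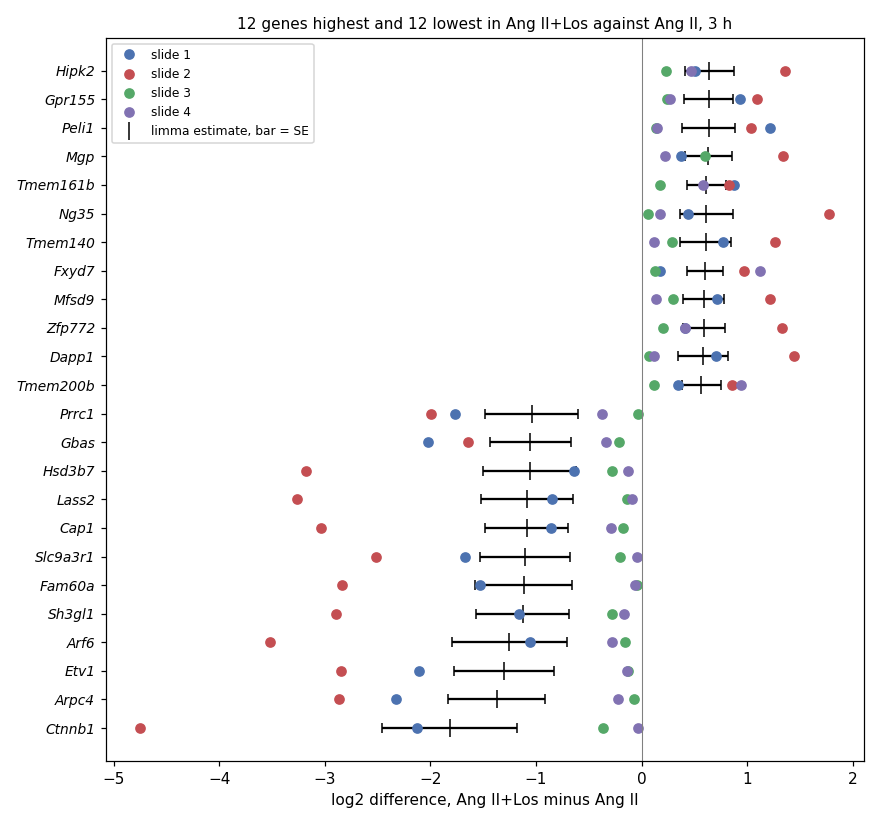
Log2 difference Ang II+Los minus Ang II (x axis) on each slide (coloured points) for the 12 highest and 12 lowest named genes (y axis), with the limma estimate and its SE in black. The lower genes are spread by slides 1 and 2, as for Ctnnb1 at -4.75 on slide 2 against -0.04 on slide 4, whereas the points of the higher genes lie closer together.

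A smaller set did not depend on any single slide. In all, 68 genes (0.499%) were called with all 4 replicates and again with each replicate left out in turn, 35 of them higher with Losartan and 33 lower. Of these, 27 named genes also moved one way on all 4 slides and were well above background on all 8 arrays, 13 higher and 14 lower. Slide 2 held the largest difference in 50 of the 68, so the set is not free of it.

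Among the higher ones, Slc30a1, the zinc exporter of the plasma membrane, was the most even. It measured 6.30, 5.63, 6.53 and 5.54 in Ang II cells and 6.68, 6.02, 6.98 and 5.96 with Losartan, which makes 0.39, 0.39, 0.45 and 0.42 from slide to slide. The slides differed from each other by more than the groups did, but every Losartan array lay above its partner by nearly the same step. The limma difference was 0.41 ± 0.12 (SE), and 0.42 without replicate 2.

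Elovl4, an elongase of very long chain fatty acids, rose by 0.30, 0.55, 0.36 and 0.32 on slides 1 to 4. Nin, a centrosomal protein that anchors microtubules, rose by 0.72, 0.26, 0.40 and 0.38. Alg11, a mannosyltransferase of N-glycan assembly, rose by 0.42 on average, Lime1, an adaptor of Src-family kinases, by 0.55, Ssbp4, a single-stranded DNA binding protein, by 0.39, and Wbscr28 by 0.48. For Wbscr28, Ang II+PD123319 minus Ang II was also 0.43, and Ang II minus Control was -0.37. Tmem161b (0.61), Tmem200b (0.57), Zfp772 (0.59), Mgp and Hipk2 belonged to both sets.

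Among the lower ones, Pdcd4, an inhibitor of translation initiation with tumour suppressor activity, measured 6.93, 7.48, 5.96 and 7.13 in Ang II cells and 6.29, 5.58, 5.76 and 6.81 with Losartan. It was lower on every slide, at -0.64, -1.91, -0.20 and -0.33, and the limma difference was -0.77 ± 0.23 (SE). Nr2f1, an orphan nuclear receptor of neural development, differed by -0.81, -1.65, -0.24 and -0.30 on slides 1 to 4. Its limma difference was -0.75, and -0.45 without replicate 2.

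Fbxl17, a substrate receptor of a ubiquitin ligase, measured 5.10, 5.44, 5.08 and 5.29 against 4.58, 4.83, 4.92 and 4.57, so that no Losartan array reached the lowest Ang II array. Its difference was -0.50 ± 0.14 (SE), and Ang II+PD123319 minus Ang II was -0.32.

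The other lower genes of the set were Slc44a2, a choline transporter (-0.83), Raly, an RNA binding protein (-0.68), Fam102b (-0.61), Hcr, now Cchcr1 (-0.51), Mecom, a zinc finger transcription factor (-0.49), C1h19orf47 (-0.48, the mean of a probe at -0.93 and another at -0.02), Ap1m1, a clathrin adaptor subunit (-0.45), and Trmt1, a tRNA methyltransferase (-0.45). For Ang II+PD123319 minus Ang II, Mecom was -0.32 and Fam102b -0.35, while Raly was -0.07 and Trmt1 -0.03. At 6 h the differences of the 23 genes named for this set lay between -0.19 and 0.16, and none was called there. These genes were chosen on their 3 h values, so the values at 6 h are given as a description, with no test.

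**Figure D3:**
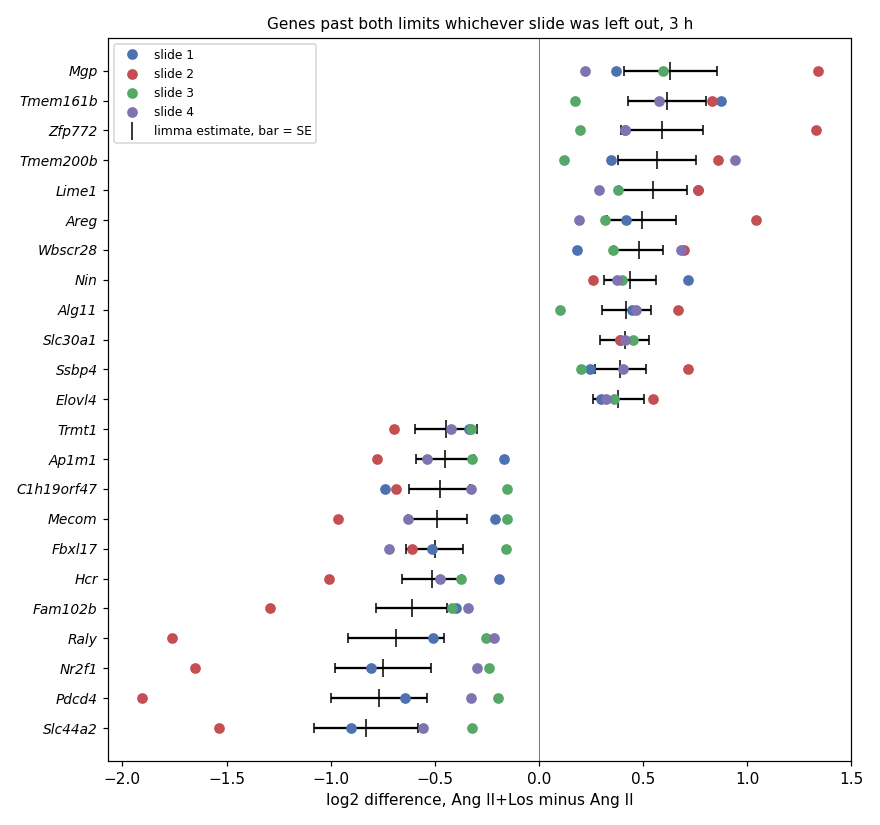
Log2 difference Ang II+Los minus Ang II (x axis) on each slide (coloured points) for the 23 genes named because they were called whichever replicate was left out (y axis), with the limma estimate and its SE in black. All points of a gene lie on one side of 0, as the choice of the genes required, and those of Slc30a1 almost coincide.

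The EGF receptor family was examined because AT1 can act through its shed ligands. Of 12 members tested, 1 was called higher and 2 were called lower, which is 25.0% beside 10.1% for all genes. Their median was -0.27 beside 0.003 for all genes. Areg, the ligand amphiregulin, was the member that rose. It measured 7.39, 7.32, 6.55 and 7.44 in Ang II cells and 7.81, 8.36, 6.86 and 7.63 with Losartan, so each Losartan array exceeded its partner. The difference was 0.49 ± 0.16 (SE), and 0.31 without replicate 2.

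Hbegf, the ligand classically released by AT1 signalling, went the other way. It measured 8.54, 7.88, 6.24 and 6.41 in Ang II cells and 8.66, 6.98, 5.87 and 5.99 with Losartan. It was lower on slides 2, 3 and 4 but not on slide 1, the difference being -0.39 ± 0.16 (SE). Without replicate 2 it was -0.22 and not called. Erbb3, a receptor of the family, was lower on all 4 slides at -0.39 and was still called at -0.38 without replicate 2. The median of the 12 members without replicate 2 was -0.02.

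The kinase cascades below AT1 were read against the 4.67% of all genes called higher and the 5.42% called lower. Of 18 immediate early transcription factors tested, which answer Gq and ERK activity within the first hour, none was called and their median was -0.12. Nr4a2 had the largest value, -0.68 with a p of 0.063. Of 14 ERK feedback genes 2 were called lower, Etv1 and the inhibitor Spry2 (-0.82), and neither was called without replicate 2. Of 20 G protein and second messenger genes the kinase Camk2d (-0.90) and the G protein subunit Gnb2 (-0.63) were called lower, which is 10.0% of the list. Without replicate 2 they were -0.51 and -0.31 and neither was called. Of 17 MAP kinases and their activators Map2k1 was called lower, at -0.42, with 0.06 on slide 1, and without replicate 2 it was -0.08 and not called. Of the 5 renin-angiotensin genes bright enough to test, Ace, which converts angiotensin I, was called higher at 0.33, and at 0.12 without replicate 2 it was not.

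Among the pathway lists examined, that of SRF-dependent cytoskeletal genes, which serum response factor activates, held the largest share of lower calls. Of 21 SRF-dependent cytoskeletal genes 7 were called lower and none higher, which is 33.3% beside 5.42% lower for all genes, with a median of -0.35. They were Cap1, the cofilin gene Cfl1 (-0.97), the non-muscle myosin heavy chain Myh9 (-0.92), Actb (-0.55), Tpm4, Tagln2 and Mprip. The list's median was -0.27 on slide 1, lowest on slide 2, -0.03 on slide 3 and -0.05 on slide 4. Without replicate 2, only Cap1 of the list was called and the median was -0.12.

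Of 27 integrin and focal adhesion genes 6 were called lower and none higher, which is 22.2% beside 5.42% lower for all genes. They were Vasp, which elongates actin filaments (-1.37), the adaptor Crk (-0.71), Lims1 (-0.69), Actn1 (-0.56), Ilk and Itgb5. Without replicate 2 only Crk was called, at -0.43. Of 22 genes of the Arp2/3 complex and its activators 3 were called lower (Arpc4, Rac1 and Cyfip1) and Wasf1 was called higher, by 0.32, which is 18.2% in both directions beside 10.1% for all genes. None of these was called without replicate 2, and the median of the list went from -0.12 to -0.03.

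The TGF-β pathway, which Ang II is known to engage in fibrosis, had 3 of 21 members called lower and none higher, which is 14.3% beside 5.42% lower for all genes. Acvr1, a type I receptor, differed by -1.06, -4.32, -0.17 and -0.20 on slides 1 to 4. Ltbp1, which tethers latent TGF-β in the matrix, had a limma difference of -1.39, and Id2, an inhibitor of bHLH factors, of -1.03. None of the 3 was called without replicate 2. Among the 28 laminins, collagens and matrix enzymes tested, Mgp and the protease inhibitor Timp2 (0.28) were called higher, beside 4.67% higher for all genes. The matrix glycoprotein Tnc (-0.77) was called lower, beside 5.42% lower for all genes. Mgp and Timp2 were still called without replicate 2, and Tnc, at -0.16, was not. Lamb1, a laminin chain, was higher on all 4 slides at 0.26, with a p of 0.051, and did not pass.

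The lists of cell cycle genes held calls in both directions, and their medians differed in sign. In the list of the MCM helicase and origin licensing, 3 of 20 members were called lower (Mcm4, Mcm5 and Mcm6), 1 was called higher (Orc6l, now Orc6, 0.37), and the median was 0.15. Beside these 4 calls of 20, 10.1% of all genes were called, and none of the 4 was called without replicate 2. Mcm4 averaged a pair of probes that disagreed, one at -1.43 and the other at 0.12, and with the deposited values the gene was higher rather than lower. Mcm5, a subunit of the replicative helicase, measured 9.90, 8.65, 6.09 and 8.81 in Ang II cells and 9.70, 7.93, 5.86 and 8.34 with Losartan. It was lower on all 4 slides, while the level itself was lowest in replicate 3 in every treatment. The difference was -0.40 ± 0.11 (SE). Without replicate 2 it was -0.30 with a p of 0.019, which is a fold just above the lower limit of 0.8.

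Of 40 spindle, kinesin and condensin genes 1 was called (Prc1, -0.44, and not without replicate 2), which is 2.5% beside 10.1% for all genes. The median was 0.04. Of 18 E2F and G1/S genes 11.1% were called, beside 10.1% of all genes: the inhibitor Cdkn2c lower (-0.67) and the phosphatase Cdc25a higher (0.39). Without replicate 2 they were -0.31 and 0.20 and neither was called. The median of this list was -0.16, and -0.09 without replicate 2. The study placed differentially expressed and co-expressed genes at the centre of its network on these samples. Of the differentially expressed ones, Mcm5 was called here, whereas Kifc1 (-0.17), Racgap1 (-0.20) and Smc1a (-0.17) were not. Tubb5 (-0.36), Mcm7 (0.02), Stmn1 (-0.02) and Cdc2, now Cdk1 (0.02), were not called either. The study had added those as co-expressed genes and did not list them as changed. Of the genes it measured by PCR, Hbegf alone was called. Ctgf, now Ccn2 (0.07), Vegfa (-0.30), Prkca (0.06), Map2k4 (-0.05), Bcar1 (-0.20), Aqp2 (0.28) and Agtrap (0.13) were not. Gapdh (-0.27), the internal control of the PCR, was not called either. Bcar1 averaged a probe at -0.36 with another at -0.04, and Gapdh averaged probes at -0.41, -0.30 and -0.10. Those lists were chosen by the study on these samples and are no independent evidence of a direction.

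In the circadian clock list 3 of 14 genes were called lower and none higher, which is 21.4% beside 5.42% lower for all genes. Bhlhe40, a repressor, differed by -2.44 and -3.76 on slides 1 and 2 and by 0.17 on slides 3 and 4 each. Nr1d2 (-0.53) and Nr1d1 (-0.33), the REV-ERB nuclear receptors, moved less. Nr1d2 was called in all 5 fits, and Bhlhe40 and Nr1d1 were not called without replicate 2. However, Nr1d2 was not well above background on all 8 arrays, and its difference on slide 3 was 0.004. The probe of Bhlhe40 was not well above background on all 16 arrays of 3 h. With normexp background Bhlhe40 was -0.76 and not called. Of 34 proteasome subunits Psma5 (0.51) and Psmd10 (0.31) were called higher and none lower, which is 5.88% beside 4.67% higher for all genes. Neither of them was called without replicate 2. No endoplasmic reticulum chaperone of 23, no tubulin of 13 and no subunit of the anaphase-promoting complex of 16 was called. Over all genes the share called was 10.1%.

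**Figure D4:**
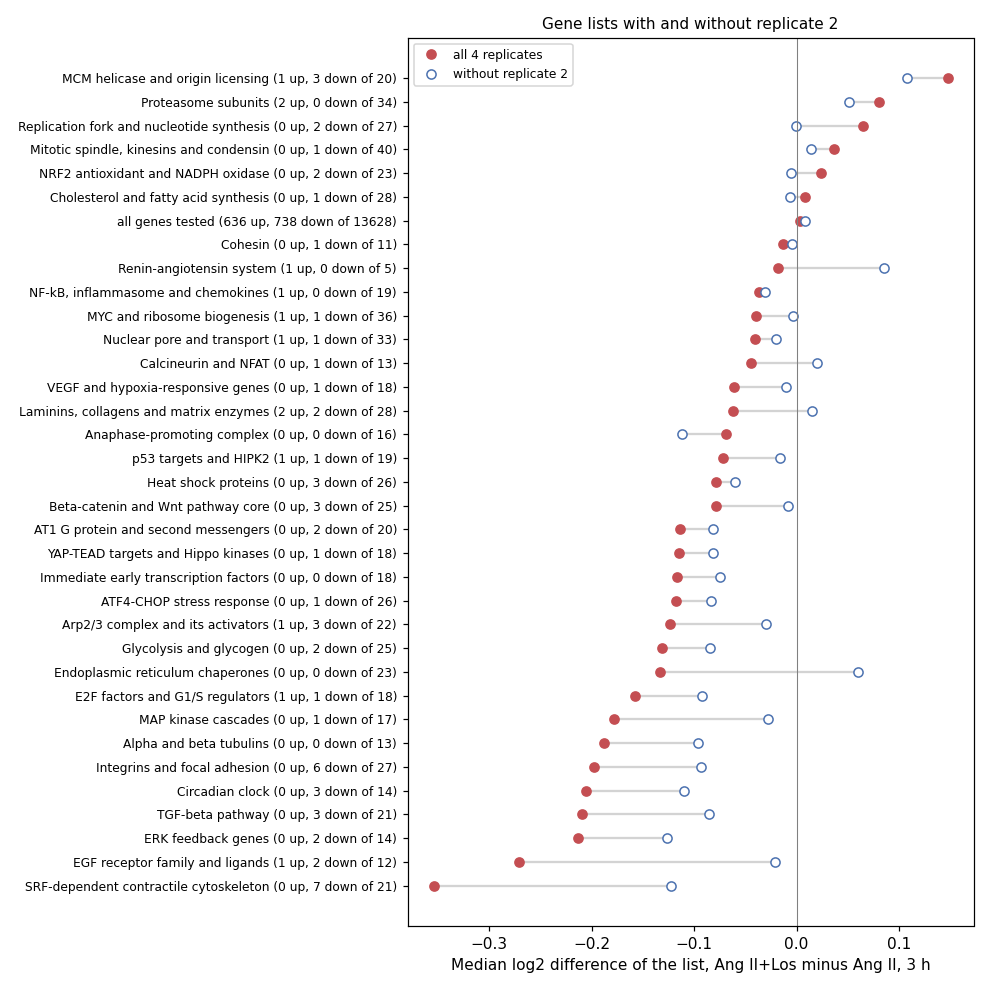
Median log2 difference Ang II+Los minus Ang II (x axis) of each gene list (y axis, with the members called higher and lower and the members tested), for all 4 replicates (filled points) and without replicate 2 (open points). The SRF-dependent list has the lowest median, -0.35, which becomes -0.12 without replicate 2.

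Promoters are printed for Areg and Mcm5, a ligand that rose and a helicase subunit that fell, because each holds a cyclic AMP response element (CRE), the binding site of CREB-family factors, which calcium and ERK signalling are known to activate. Both are from RefSeq (GRCr8), run 5′ to 3′ on the gene's strand, and cover 250 bases before and 50 after the annotated start. Areg lies at chr14:17265592-17265891 on the minus strand and Mcm5 at chr19:13488563-13488862 on the plus strand. Capitals mark the CRE (TGACGTCA) in both and the E2F site (TTTGGCGC, on the opposite strand) in Mcm5.
Areg: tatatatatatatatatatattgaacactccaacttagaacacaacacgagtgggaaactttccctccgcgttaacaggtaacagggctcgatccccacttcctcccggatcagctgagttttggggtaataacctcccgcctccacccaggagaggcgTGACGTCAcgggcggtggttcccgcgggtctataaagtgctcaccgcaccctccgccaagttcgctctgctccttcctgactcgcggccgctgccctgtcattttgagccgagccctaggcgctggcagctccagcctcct
Mcm5: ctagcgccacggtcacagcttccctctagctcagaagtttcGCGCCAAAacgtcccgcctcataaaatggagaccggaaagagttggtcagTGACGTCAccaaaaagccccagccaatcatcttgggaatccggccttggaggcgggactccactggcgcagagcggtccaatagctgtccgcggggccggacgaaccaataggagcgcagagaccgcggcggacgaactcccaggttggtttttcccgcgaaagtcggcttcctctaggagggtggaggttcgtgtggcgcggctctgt

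A CRE was found on either strand in 3.41% of the 7648 promoters matched to tested genes, in 2.99% of those called higher and in 4.04% of those called lower. For the AP-1 site (TGANTCA) these shares were 4.68%, 3.36% and 4.04%, and for the E2F site 0.994%, 1.49% and 0.899%. The motifs do not overlap each other in the printed promoters. The shares are descriptions of letters in this window.

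The same comparison on the separate arrays of 6 h gave 148 called genes of 16441 (0.900%), a larger set of tested genes. Among the 13615 genes tested at both times, 1373 were called at 3 h, 43 at 6 h and 3 at both. In a fit of both times, 687 of 13615 genes (5.05%) had an unadjusted p under 0.05 for the difference between the Losartan effect at 3 h and at 6 h, and none had an adjusted p under 0.05 by limma (lowest 0.702). As a description of genes chosen on their 3 h values, Ctnnb1 was -1.82 at 3 h and 0.01 at 6 h, and Arpc4 was -1.37 and -0.08. Without replicate 2 of both times, the count of 687 fell to 152.

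Against the AT2 antagonist at the same concentration and time, which leaves Ang II alone out of the contrast but uses the same Ang II+Los arrays, 1798 genes (13.2%) were called, 967 higher and 831 lower with Losartan. None had an adjusted p under 0.05 by limma (lowest 0.340), and without replicate 2 the count was 340. The genes that follow were chosen on those same Ang II+Los arrays, so their values are a description. Areg was higher with Losartan than with PD123319 by 0.74, Slc30a1 by 0.56, Nin by 0.65 and Mgp by 0.94. Of the 68 genes called whichever replicate was left out, 47 were called in the same direction between the antagonists. Wbscr28 (0.05), Mecom (-0.17) and Fbxl17 (-0.18) were not. Hbegf (0.20 ± 0.16 SE, limma adjusted p = 0.503) did not pass between the antagonists, which does not show that both drugs act alike on it.

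The plot of single arrays shows where the antagonists stood. Mean signals of Areg were 7.23 ± 0.34 in Control, 7.17 ± 0.42 in Ang II, 7.66 ± 0.62 in Ang II+Los and 6.92 ± 0.45 in Ang II+PD123319 cells (SD, n = 4 each). For Hbegf the means were 7.20, 7.27, 6.87 and 6.68 in the same order. Ctnnb1 averaged 9.62 in Control and 10.04 with PD123319, and its 2 lowest arrays of all 16 were those of Ang II+Los replicates 1 and 2.

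**Figure D5:**
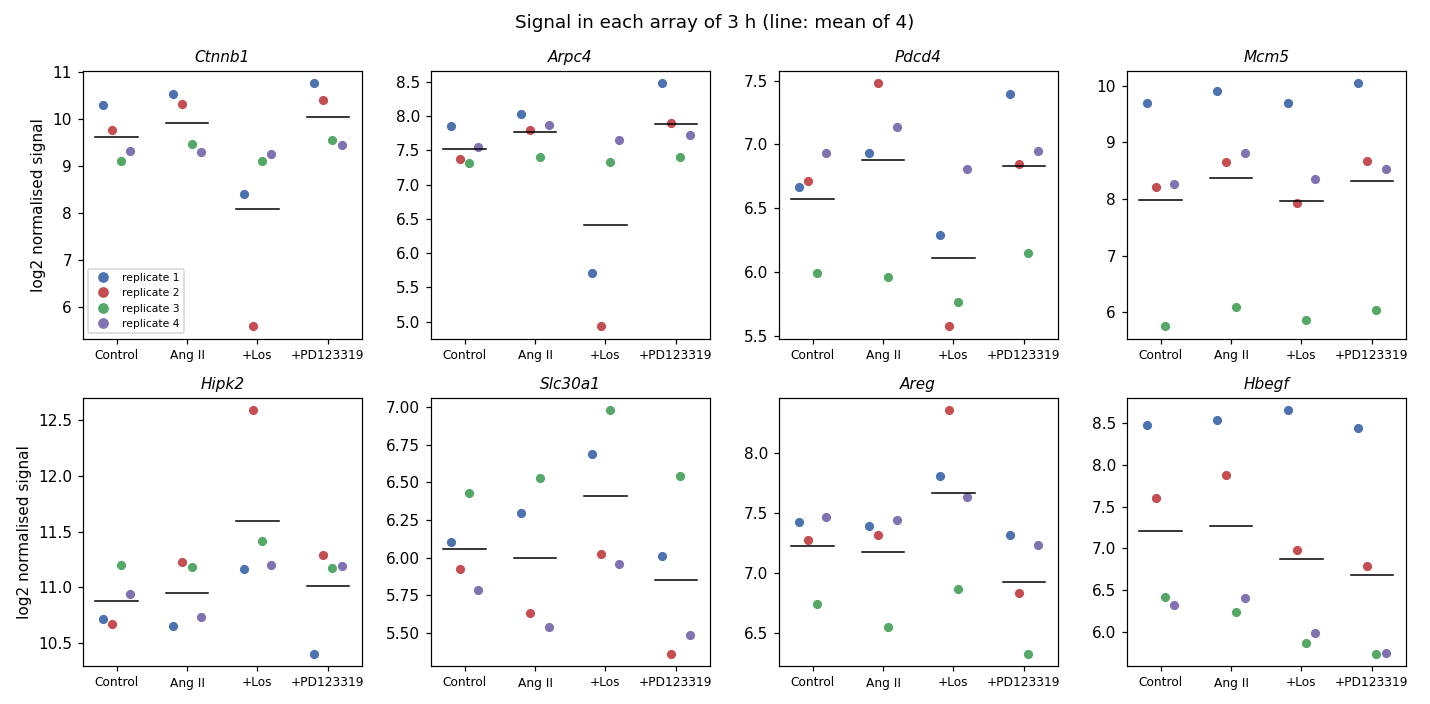
Log2 normalised signal (y axis) of 8 genes in each of the 16 arrays of 3 h by treatment (x axis); points are arrays coloured by replicate, and lines are means of 4. Slc30a1 and Areg step up with Losartan in every replicate, while Ctnnb1 and Arpc4 drop in replicates 1 and 2.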

How the data were processed

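One-colour Cy3 arrays (Agilent rat 4x44K) were used, 16 of 3 h and, for one contrast, the 16 of 6 h. Per the file headers and the submitters' processing notes, the deposited intensity values are background-subtracted spot signals from Agilent Feature Extraction 9.5.3.1 (build rn4). The deposited table of log2 values of the same arrays served as an alternative, with its centring and scale not stated. RNA had been selected on its integrity number by the authors. On these arrays 55.9% to 64.7% of spots in the 8 members were well above background, and the number of arrays limits the precision. No 2 arrays of 3 h held identical values.

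Here, outlier spots were left out and 3 h signals not above background were replaced by their stated error. Spots were averaged per probe, probes with up to 2 gaps were kept, and the 16 arrays of a time were normalised by cyclic loess (3 iterations, span 0.7). A probe entered when every array of some treatment read it well above background, and probes were averaged per gene name. limma 3.58.1 in R 4.3.3 fitted all 16 arrays of 3 h with the replicate number as a block, two-sided, with Benjamini-Hochberg adjustment over all genes tested. The study's methods name a t-test with a threshold on p, and the series record a paired one; both kinds were run as alternatives, and the fold limit was set here.

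A replicate number is a slide per the file headers, and deviations from the group means of the same-numbered Ang II+Los and Ang II arrays correlated at 0.651, 0.292, 0.818 and 0.539 across genes in replicates 1 to 4. Position on the slide and treatment cannot be told apart. Replicates 1 and 2 were scanned in one session and 3 and 4 in another.

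Genes were named by rule: the 12 highest and 12 lowest called genes with one direction on all slides, a probe well above background on all 8 arrays and a symbol; the 12 of largest t in each direction that were also called with each replicate left out; up to 4 called members of each list, or its largest; and the genes the study placed at network centres or measured by PCR. An item chosen by this rule is not reported here. Other genes in the text were named after their values were seen. The members and lists were chosen with earlier results of these data known. Of 979 list symbols, 903 were found as written, 30 by another name and 46 were not found. Probe pairs for the 5′ and 3′ comparison lay 200 to 500000 bases apart on rn4. Motifs were searched in RefSeq promoters (GRCr8). The fit was tested on simulated data. Alternatives changed the block, test, normalization, background, filter, averaging, samples, weights, fold limit, scan session and replicates. Leaving out one array of replicate 2 was added after seeing the data.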

Additional observations from a re-analysis of the deposited data

Results flagged for a closer look

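Within groups of 4 arrays, 11 of 247 sets of values held one array far from the other 3, judged by its gap to the nearest as a share of the group's range (Dixon's test); chance flags about 1 in 20. In Ang II+Los cells both were replicate 2: Ng35 stood at 7.87 against 6.97 to 7.10 in the others (ratio 0.849), and Cap1 at 6.56 against 8.27 to 8.59 (0.844). In Ang II cells replicate 3 stood apart for Fxyd7 (6.08, ratio 0.950), Areg (6.55, 0.864), Gnb2 (11.19, 0.833), Top2a (6.37, 0.830) and Actb (14.42, 0.909). Replicate 4 did so for Slc44a2 (5.53, 0.896), replicate 2 for Nr4a2 (5.77, 0.847), and replicate 1 for Nr2f1 (8.13, 0.923) and Gpt2 (4.18, 0.869).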

How the results depend on the processing

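The count of 1374 called genes stayed within 1.5 times under a random slide block, 75th percentile scaling, quantile normalization, normexp background, either other filter on dim probes, single probes, the deposited values and both other fold limits. It was 341 with no replicate block, 136 by a paired and 96 by an unpaired t-test per gene, 410 from the 8 arrays alone, 331 with array weights, 2436 in scan session 1 alone and 581 in session 2 alone. Leaving out a replicate gave 221 (replicate 2) to 1831 (replicate 3). Without the Ang II+Los array of replicate 2 alone it was 188, and without its Ang II array 467. No setting gave an adjusted p under 0.05. The share of calls that were higher, 46.3%, was 35.2% in session 1, 69.5% in session 2, 60.2% without replicate 2, 67.7% with array weights and 72.8% by the paired t-test. The block mattered for pairing: of the 341 genes called without it, 333 were among the 1374. Of the 100 named genes that were called, 32 were still called without replicate 2, 46 without replicate 1, 87 without replicate 3 and 84 without replicate 4. By the unpaired t-test 4 of them were called and by the paired one 19, with array weights 20, in session 2 alone 23, with no replicate block 33 and from the 8 arrays alone 49.

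For the difference between 3 h and 6 h, 687 became 94 with no replicate block, and 152 (replicate 2) to 1196 (replicate 3) with a replicate left out. Losartan against PD123319 gave 464 instead of 1798 with no replicate block, and 340 (replicate 2), 402 (replicate 1) and up to 2567 (replicate 3) with a replicate left out. The cause of these moves was not tested.

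The signs of some named genes turned. With the deposited values Mcm4 was 0.10, Cdc2 -0.016, Mcm7 -0.0016 and Map2k4 0.048. Stmn1 was 0.073 after 75th percentile scaling, Map2k4 0.0063 after quantile normalization, and Elovl4 -0.21 with no filter, when more probes entered its average. With array weights Calr was 0.016, Hsph1 0.00084, Tubb4 0.16, Bhlhe40 0.039, Cdc2 -0.052, Map2k4 0.016, Vegfa 0.043 and Ctgf -0.042. In session 1 Stmn1 was 0.053. In session 2 Mcm4 was 0.034, Cdc26 0.044, Vasp 0.057, Calr 0.16, Hsph1 0.11, Tubb4 0.61, Bhlhe40 0.17, Cdc2 -0.082, Mcm7 -0.026, Prkca -0.012 and Vegfa 0.068. With a replicate or 1 of the replicate 2 arrays left out, Cdc2 ranged from -0.063 (without replicate 2) to 0.058 (without replicate 4), Mcm7 from -0.048 (without replicate 1) to 0.13, Stmn1 from -0.071 to 0.043 (without replicate 3), Map2k4 from -0.18 (without replicate 1) to 0.098 (without replicate 2) and Ctgf from -0.055 (without replicate 1) to 0.21. The upper ends of Mcm7 and Ctgf and the lower end of Stmn1 came without the Ang II array of replicate 2.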
